A study of Mus musculus with 12 samples.

Results

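The genes described here encode the enzymes, membrane proteins and proton pump of the lysosome, together with Tfeb, a transcription factor that switches many of them on. They are 45 genes, chosen by name as textbook lysosomal genes, of the 34810 gene names with usable probes on a mouse microarray. All 45 were found, with 63 probes, and 62 of these were kept because at least 1 group had them well above background on each of its arrays. The array measured RNA of macrophage preparations in 4 groups of 3 arrays. The op/op group held CD11b+/CD11c+ cells sorted magnetically (autoMACS) from the kidneys of homozygous Csf1op mice, which make no working macrophage colony-stimulating factor (M-CSF, the product of Csf1). The WT group held the same sorted fraction from wild-type mice of that stock. Both kinds of mice had been given 80 mg/kg glyoxylate, an oxalate precursor that causes renal crystals in mice, for 6 days, so no untreated kidney was measured. The M1 group held bone marrow-derived macrophages stimulated ex vivo with LPS and GM-CSF, and the M2 group held bone marrow-derived macrophages stimulated with IL-4 and M-CSF. The strain label of all 12 samples was B6C3Fe a/a-Csf1op/J, and for the bone marrow cultures the labels used here do not say whether the donors carried the mutation. M1 and M2 differed in both the stimulus and the growth factor. The labels do not tell separate animals or cultures from repeat samples within a group. The spread behind the p-values may therefore be technical only.

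Lysosomes break down material taken up by phagocytosis and endocytosis. Their hydrolases work at the acid pH that the proton pump sets up, and most are carried to the lysosome by mannose 6-phosphate receptors. Macrophages hold many lysosomes, and so do the cells of the proximal tubule, which degrade filtered protein. TFEB and its relatives bind a short palindrome upstream of many lysosomal genes and raise their transcription when they enter the nucleus.

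Signals are given as log2 intensity with each array's 75th percentile set to 0, so they compare a probe between arrays and not one gene with another. A gene is represented by its brightest probe. Differences are log2 differences with the standard error (SE) of a linear model fitted with limma to all 12 arrays, and a gene is said to have risen or fallen where its Benjamini-Hochberg adjusted p over all genes tested was under 0.05. Per-array values follow the order of the replicate numbers, which are 1, 2 and 4 in the renal groups and 2, 3 and 4 in the bone marrow groups. Between 63.1% and 68.8% of spots were well above background on op/op arrays, against 76.3% to 79.5% on WT arrays, and the shares were 72.9% to 75.4% on M1 arrays, against 64.8% to 65.4% on M2 arrays. No spot was saturated. WT replicate 1 was on a slide of its own, the other 5 renal arrays shared a slide, and all bone marrow arrays shared another. WT replicate 4 stood nearer to the op/op arrays than the other WT arrays did, with correlations over all probes kept of 0.937, 0.965 and 0.955 with the op/op arrays. The correlations were 0.858, 0.906 and 0.888 for WT replicate 1 and 0.892, 0.934 and 0.921 for WT replicate 2. Csf1 itself gave -0.98, -0.06 and -0.54 in op/op, against -0.18, -0.14 and 0.00 in WT (difference -0.42 ± 0.21, limma adjusted p = 0.104), and because the op mutation is a base insertion that shifts the reading frame, the signal of its transcript does not check the genotype labels.

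Among the members, 4 were represented by a probe with a sequence run that recurs near many other genes, and 30 bases of each such 60-base probe are shown because their readings differ from those of the other members below. The capitals mark 16 bases that were also found, on either strand, in promoter windows of other genes. The probe sequences come from the scanner files, and the positions are those of the files in mm9.
Sgsh: atgcacaTGTGTGTGTGTGTGTGtgtgtgc
Idua: CACACACACACACACAcacagagtctaaat
Galns: ggagtgcTGGGATTAAAGGCGTGcgccatc
Gla: gaTCTGATGCCCTCTTCTggttctctagac
The Sgsh probe, at chr11:119204865-119204924 (minus strand), held a run of GT repeats and the Idua probe, at chr5:109112893-109112952 (plus strand), a run of CA repeats, each found in 148 of 32851 promoter windows of RefSeq. The run of the Gla probe, at chrX:131122895-131122954 (minus strand), was found in 42 windows and that of the Galns probe, at chr8:125102144-125102203 (minus strand), in 8. No other member probe shared a run of this length with more than 2 windows. On the whole array, 1111 probes (2.0%) shared a run with at least 5 windows.

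Promoter windows, from 250 bases before to 50 after the annotated gene start in RefSeq (GRCm38.p6), were at hand for 39 of the 45 members. The E-box CACGTG stood in the windows of 15 of the 39 members (38.5%), against 8.09% of all 27025 genes with a window. The longer palindrome TCACGTGA, which contains that E-box and is the core of the motif bound by TFEB, stood in 7 of the 39 (17.9%), against 1.12% of all genes. Both strings read the same on both strands. The windows of these 7 genes are shown around the palindrome, in capitals, because it was more frequent among the members than among all genes, although 32 of the 39 lacked it. As the palindrome is known from upstream of many lysosomal genes, its excess among genes chosen as lysosomal is not an independent result.
Ctsa: gagcaaactgTCACGTGAtgcagatgct
Ctsd: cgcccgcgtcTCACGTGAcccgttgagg
Gla: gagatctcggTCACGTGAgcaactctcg
Mcoln1: ggcgccccgcTCACGTGAccgcggcgca
Cln3: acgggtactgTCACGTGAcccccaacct
Atp6v1a: tttttttaaaTCACGTGAtaggcttaac
Atp6v0d1: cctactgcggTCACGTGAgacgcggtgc
The stretches lie at chr2:164833750-164833777 (plus strand) for Ctsa, chr7:142387909-142387936 (minus strand) for Ctsd, chrX:134601183-134601210 (minus strand) for Gla, chr8:3500463-3500490 (plus strand) for Mcoln1, chr7:126583341-126583368 (minus strand) for Cln3, chr16:44139374-44139401 (minus strand) for Atp6v1a and chr8:105566051-105566078 (minus strand) for Atp6v0d1. The windows of Ctsa and Gla held a further copy each. A match is a string of letters and does not show that a factor binds there.

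The first comparison asks how renal macrophage preparations differ when M-CSF is missing. Lysosomal genes were lower in op/op as a group: 32 of the 45 fell, 3 rose and 10 did not pass the test. Of all 27066 genes tested, 59.8% changed, 28.7% falling and 31.1% rising. At least 2-fold falls were found in 28 members, against 13.2% of all genes. The median difference over the 45 members was -1.17, and that over all genes tested was 0.16, so relative to the median gene the members' median was -1.32. In 30 members every op/op array lay below every WT array, which was so for 26.2% of all genes, and in 4 members (Gla, Gaa, Npc1 and Cln3) every op/op array lay above every WT array, which was so for 32.6% of all genes. On the slide that holds both genotypes (WT replicates 2 and 4 with the 3 op/op arrays), 31 members fell, with a median difference of -1.04. Without WT replicate 4, 36 members fell, with a median of -1.5, and against WT replicate 4 alone, a value with no test, the members' median difference was -0.58.

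**Figure D1:**
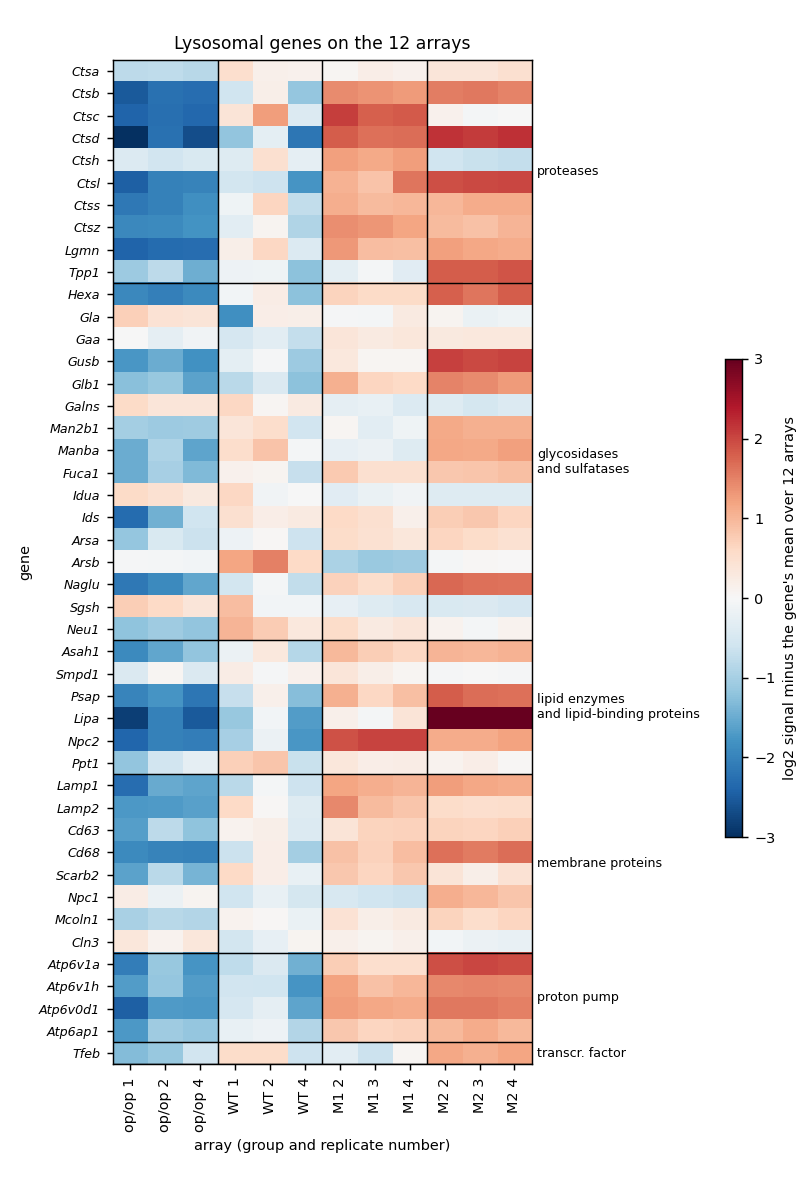
Log2 signal of the 45 lysosomal genes (rows, by role) on the 12 arrays (columns, by group and replicate number), minus each gene's mean over the 12 arrays. Most rows are blue in the op/op columns and red in the M1 and M2 columns, with WT between, while Gla, Galns, Idua, Sgsh, Npc1 and Cln3 are not blue in op/op; over the members the median difference of op/op minus WT was -1.17.

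Proteases had the lowest median of the role groups. Of the 10, 8 fell, none rose, and the median difference was -1.46. The counts by role group, here and below, stand against 28.7% of all genes tested that fell and 31.1% that rose. Ctsc, the dipeptidyl peptidase that activates granule serine proteases, gave 0.21, 0.35 and 0.24 in op/op, against 2.99, 3.87 and 2.19 in WT. The op/op arrays lay close together and far below the lowest WT array, and the gene fell 6.72-fold (-2.75 ± 0.32, limma adjusted p = 0.000358). Its other probe fell by less, with -1.70 ± 0.30 (limma adjusted p over all probes = 0.00164). Lgmn, the asparaginyl endopeptidase that processes several cathepsins, gave 1.44, 1.54 and 1.56 in op/op, against 4.03, 4.48 and 3.44 in WT. Its groups did not overlap and it fell 5.54-fold (-2.47 ± 0.23, limma adjusted p = 0.000198). Ctss, which trims the MHC class II invariant chain, gave 3.73, 3.84 and 4.04 in op/op, against 5.74, 6.51 and 5.14 in WT. It fell 3.8-fold (-1.93 ± 0.27, limma adjusted p = 0.000614), without overlap between the groups. Ctsb, a cysteine protease with both endopeptidase and exopeptidase activity, gave 3.68, 3.96 and 3.93 in op/op, against 5.60, 6.38 and 5.04 in WT and fell 3.53-fold (-1.82 ± 0.27). The cysteine carboxypeptidase gene Ctsz (-1.49 ± 0.21), the aspartic protease gene Ctsd (-1.43 ± 0.37), the endopeptidase gene Ctsl (-1.18 ± 0.31) and Ctsa (-1.06 ± 0.15), whose product shields neuraminidase 1 and beta-galactosidase from degradation, fell as well, with limma adjusted p between 0.000614 and 0.00786. Ctsh, an aminopeptidase, gave 2.49, 2.34 and 2.45 in op/op, against 2.52, 3.37 and 2.62 in WT. Its op/op arrays all lay below the WT arrays, the highest of them by little, and the difference of -0.41 ± 0.21 did not pass (limma adjusted p = 0.102). Tpp1, a tripeptidyl peptidase, had a difference of -0.61 ± 0.28 (limma adjusted p = 0.0733), was well above background on 2 of the 3 op/op arrays, and overlapped between the groups.

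**Figure D2:**
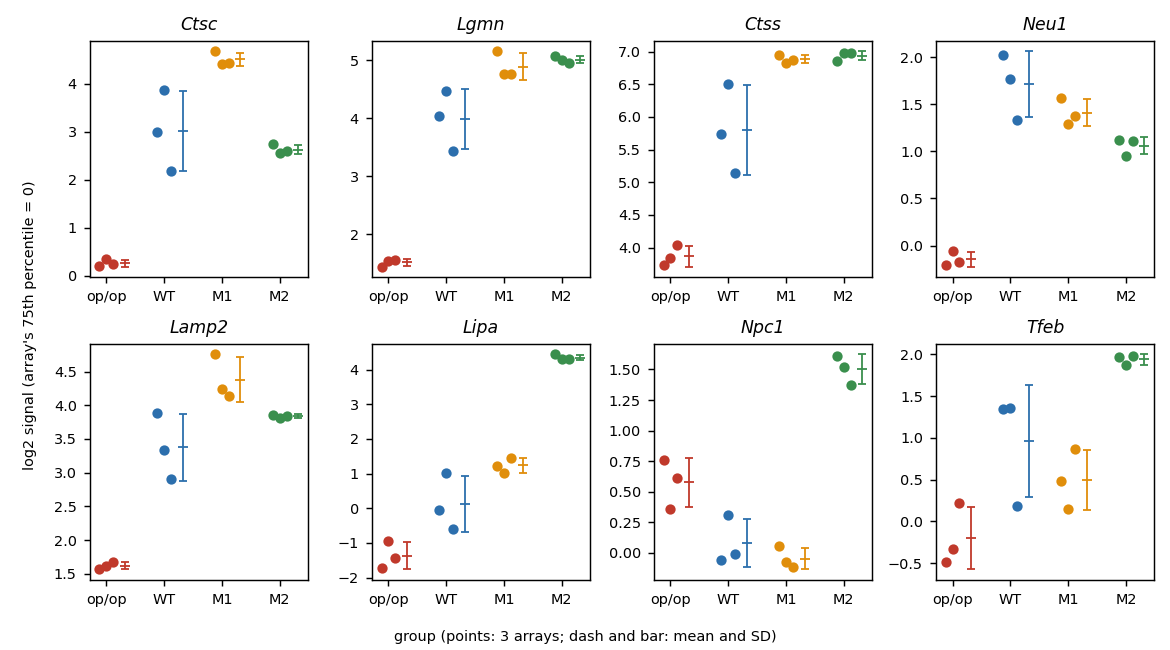
Log2 signal (array's 75th percentile = 0) of 8 lysosomal genes in the 4 groups; points are the 3 arrays of a group, the dash and bar their mean and SD. The op/op points of Ctsc, Lgmn, Ctss, Neu1, Lamp2 and Lipa all lie below every WT point, those of Npc1 lie above, Tfeb overlaps, and Lipa, Npc1 and Tfeb are lower in M1 than in M2.

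Among the 16 glycosidases and sulfatases, which take sugar chains and their sulfate groups apart, 9 fell, 1 rose and 6 did not pass, with a median difference of -1.13. Neu1, the lysosomal sialidase, gave -0.21, -0.06 and -0.17 in op/op, against 2.03, 1.77 and 1.34 in WT. It fell 3.63-fold (-1.86 ± 0.18, limma adjusted p = 0.000222), and the lowest WT array was far above the highest op/op array. Manba, which removes beta-linked mannose from glycoproteins, gave -1.58, -1.01 and -1.68 in op/op, against 0.44, 0.76 and -0.15 in WT and fell 3.42-fold (-1.77 ± 0.24). Hexa, the alpha subunit of beta-hexosaminidase A, which degrades GM2 ganglioside, gave 1.40, 1.27 and 1.41 in op/op, against 3.24, 3.55 and 2.09 in WT and fell 3.04-fold (-1.61 ± 0.29). In each of these genes the groups did not overlap. Ids, an iduronate sulfatase of heparan and dermatan sulfate breakdown, gave -4.62, -3.75 and -2.90 in op/op, against -1.81, -2.11 and -2.03 in WT (-1.77 ± 0.33, limma adjusted p = 0.0018). It was well above background on 1 of the 3 op/op arrays and on all WT arrays, so its op/op level is poorly determined. Naglu (-1.41 ± 0.20) and Arsb (-1.16 ± 0.20), of glycosaminoglycan breakdown, Gusb (-1.2 ± 0.24), the beta-glucuronidase, Man2b1 (-1.17 ± 0.25), the alpha-mannosidase, and Fuca1 (-1.10 ± 0.22), the alpha-fucosidase, also fell, each by more than 2-fold. The fall of Fuca1 was lost on its dimmer probe (-0.28 ± 0.45), which was well above background on no op/op array. Glb1, the beta-galactosidase, and Arsa, the sulfatidase, had differences of -0.50 ± 0.22 (limma adjusted p = 0.0728) and -0.51 ± 0.22 (limma adjusted p = 0.0594) and did not pass. Gaa, the acid alpha-glucosidase of glycogen breakdown, was the 1 member of this set that rose, with -0.59, -0.84 and -0.69 in op/op, against -1.08, -0.89 and -1.29 in WT (0.38 ± 0.15, limma adjusted p = 0.0458). That call was lost in 19 of 27 alternative settings, and the 3 probes of Gaa did not have the same sign: the dimmest gave -0.39 ± 0.30.

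The other 4 glycosidase and sulfatase genes that did not pass were the ones whose brightest probe shares a run with many promoter windows. Sgsh, the heparan sulfamidase, gave 9.999, 9.86 and 9.63 in op/op, against 10.20, 9.18 and 9.19 in WT on that probe (0.31 ± 0.25, limma adjusted p = 0.286). On its other probe, which has no such run, Sgsh gave 1.34, 1.5 and 1.55 in op/op, against 2.23, 1.77 and 2.44 in WT, a difference of -0.68 ± 0.19 (limma adjusted p over all probes = 0.0103), and there the groups did not overlap. Idua, the alpha-iduronidase, gave 7.87, 7.74 and 7.59 in op/op, against 7.91, 7.19 and 7.27 in WT on the probe with the run (0.28 ± 0.19, limma adjusted p = 0.224) and 0.14, 0.25 and 0.57 in op/op, against 1.0, 1.73 and 0.78 in WT on the other probe, a difference of -0.85 ± 0.23 (limma adjusted p over all probes = 0.0107). The 2 probes of each gene therefore differed in sign, and both genes fell on the probe without the run. Galns, a galactosamine 6-sulfatase (0.12 ± 0.17, limma adjusted p = 0.542), and Gla, the alpha-galactosidase A (1.0 ± 0.43, limma adjusted p = 0.0614), had no other probe. Gla gave 7.07, 6.79 and 6.75 in op/op, against 4.53, 6.57 and 6.53 in WT, and the low WT value was that of the array on a slide of its own. Over the whole array, 929 genes tested here were represented by a probe with such a run; 3.23% of them fell and 48.5% rose, against 29.6% and 30.5% of all other genes, with median differences of 0.55 and 0.11. When all probes with such a run were left out, an alternative chosen after seeing the data, 43 members could be measured, of which 34 fell and 3 rose. Whether these probes also read other transcripts was not tested.

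**Figure D3:**
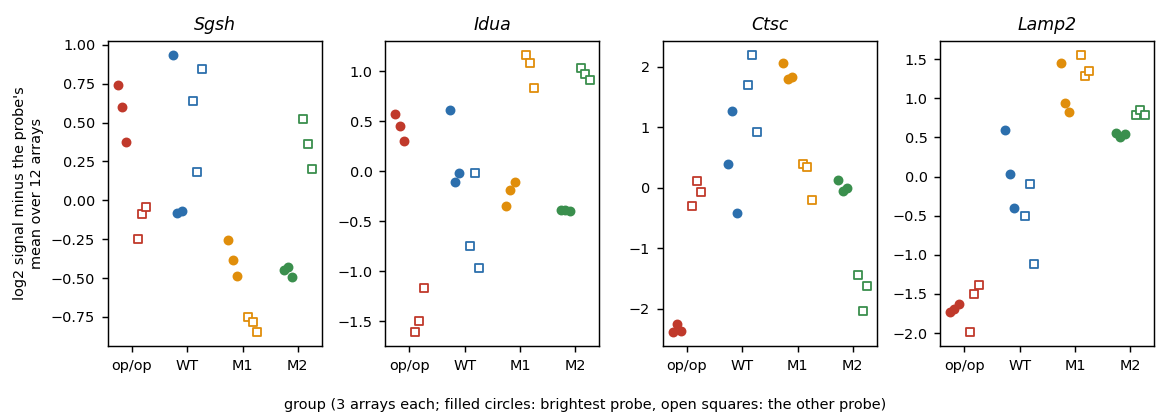
Log2 signal of the 2 probes of Sgsh, Idua, Ctsc and Lamp2 in the 4 groups, minus each probe's own mean over the 12 arrays; filled circles are the brightest probe and open squares the other probe, 3 arrays per group. For Sgsh and Idua the circles of op/op and WT overlap while the squares of op/op lie below those of WT, whereas for Ctsc and Lamp2 both probes lie lower in op/op than in WT.

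In lipid breakdown and lipid binding, 5 of 6 genes fell. Lipa, the acid lipase that splits cholesteryl esters and triglycerides, gave -1.73, -0.95 and -1.43 in op/op, against -0.04, 1.01 and -0.59 in WT and fell 2.82-fold (-1.49 ± 0.34, limma adjusted p = 0.00426). Psap, the precursor of the saposins that present sphingolipids to their hydrolases, gave 2.22, 2.44 and 2.05 in op/op, against 3.53, 4.36 and 2.92 in WT and fell 2.58-fold (-1.37 ± 0.29). The groups did not overlap in either gene, and the WT arrays spread over more than 1 log2 unit. Asah1, the acid ceramidase (-1.31 ± 0.27), Npc2, a soluble cholesterol carrier (-1.19 ± 0.30), and Ppt1, a palmitoyl thioesterase (-0.96 ± 0.35), fell too, and Ppt1 overlapped between the groups and lost its call in 8 of 26 alternative settings. Smpd1, the acid sphingomyelinase, gave -0.38 ± 0.17 (limma adjusted p = 0.0745) and did not pass.

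Of the 8 membrane proteins, 6 fell and 2 rose, against 28.7% and 31.1% of all genes. Lamp2, an abundant glycoprotein of the lysosomal membrane, gave 1.57, 1.61 and 1.67 in op/op, against 3.89, 3.34 and 2.91 in WT and fell 3.38-fold (-1.76 ± 0.24, limma adjusted p = 0.000533). Its other probe, annotated to another transcript, fell by 1.05 ± 0.25 on the log2 scale. Cd68, a macrophage-rich relative of the LAMP proteins, gave 3.27, 3.17 and 3.15 in op/op, against 4.54, 5.39 and 4.16 in WT and fell 2.82-fold (-1.49 ± 0.25). Scarb2 (-1.45 ± 0.24), the receptor that carries glucocerebrosidase to the lysosome, Lamp1 (-1.29 ± 0.24), the tetraspanin gene Cd63 (-1.17 ± 0.23) and Mcoln1 (-0.87 ± 0.15), a calcium channel, fell without overlap between the groups. Npc1, the transporter that takes cholesterol handed over by NPC2 out of the lysosome, rose, with 0.76, 0.36 and 0.61 in op/op, against -0.06, 0.31 and -0.01 in WT (0.50 ± 0.17, limma adjusted p = 0.0241). Cln3, whose loss causes a neuronal ceroid lipofuscinosis, gave 3.38, 3.15 and 3.39 in op/op, against 2.5, 2.81 and 3.14 in WT and rose (0.49 ± 0.17, limma adjusted p = 0.0304), and its next brightest probe was higher as well (0.93 ± 0.20). Every op/op array of both genes lay above every WT array, by little at the closest. Neither rise, nor that of Gaa, passed on the slide that holds both genotypes (limma adjusted p = 0.0581 for Npc1, 0.0865 for Cln3 and 0.0605 for Gaa), where the 2 members that passed as higher were Idua and Sgsh on their probes with a run. A fit to the 6 renal arrays alone left none of the 3 rises (limma adjusted p = 0.126, 0.143 and 0.21) and 30 falls, and no rise passed without op/op replicate 1 or without op/op replicate 4.

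Of the 4 proton pump genes, 3 fell. Atp6v0d1, a subunit of the membrane sector, gave -0.06, 0.68 and 0.67 in op/op, against 1.89, 2.12 and 0.81 in WT and fell 2.26-fold (-1.18 ± 0.30, limma adjusted p = 0.00768), with groups that came close but did not overlap. The accessory subunit gene Atp6ap1 (-0.90 ± 0.22) and Atp6v1a (-0.78 ± 0.27), the catalytic subunit, fell by less, and Atp6v1a overlapped between the groups and lost its call in 8 of 27 alternative settings. Atp6v1h, a regulatory subunit, gave -0.53 ± 0.29 (limma adjusted p = 0.126) and did not pass. Tfeb gave -0.49, -0.33 and 0.22 in op/op, against 1.35, 1.36 and 0.18 in WT and fell 2.24-fold (-1.16 ± 0.32, limma adjusted p = 0.00942). The highest op/op array of Tfeb lay just above WT replicate 4. Of the 7 members with TCACGTGA in the promoter window 5 fell, 1 rose and 1 did not pass, and of the 32 members with a window and no such palindrome 25 fell.

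**Figure D4:**
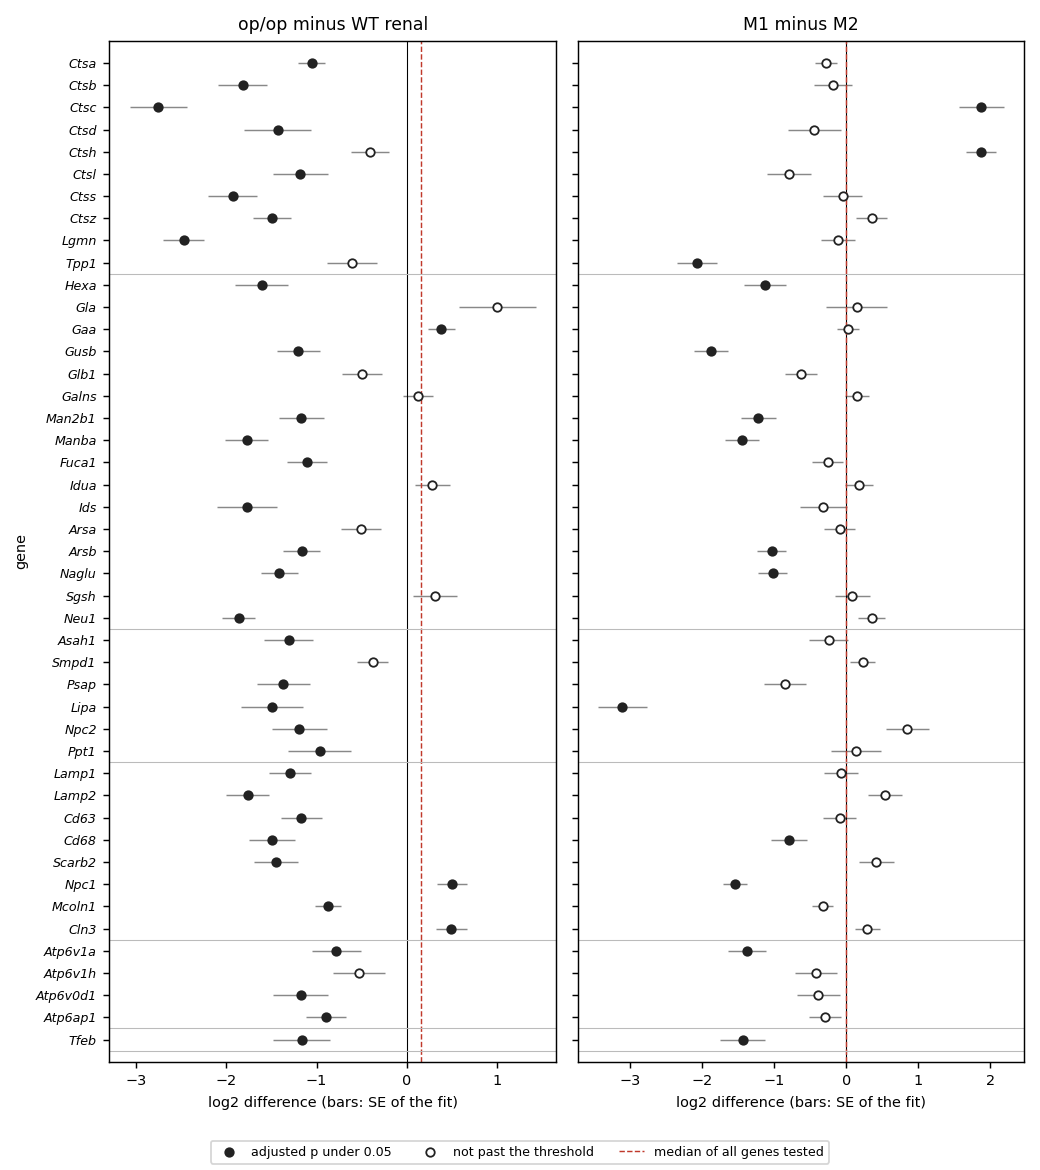
Log2 differences of the 45 lysosomal genes, op/op minus WT (left) and M1 minus M2 (right), with the SE of the fit; filled points have an adjusted p under 0.05, grey lines part the role groups, and the dashed line is the median of all genes tested. In the left panel 32 filled points lie left of 0 and 3 right of it; in the right panel 12 lie left and 2 right.

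Members varied more among WT arrays than among op/op arrays. Over the 45 genes the median SD within a group was 0.20 in op/op, 0.49 in WT, 0.12 in M1 and 0.06 in M2. The correlations over all probes kept were 0.961, 0.945 and 0.973 among the WT arrays and 0.973, 0.972 and 0.980 among the op/op arrays. Whether the wider WT spread is particular to the members was not tested. WT replicate 4 was the lowest WT array in 30 of the 32 members that fell. The median signal of the 45 members was 1.09, 1.2 and 1.40 in op/op, against 2.48, 2.90 and 1.86 in WT. Macrophage markers moved the same way: the median of 11 such genes was 0.07, 0.49 and 0.64 in op/op, against 3.15, 4.18 and 1.51 in WT, and 8 of the 11 fell and none rose. Among them were Cx3cr1 (-2.61 ± 0.33), C1qa (-2.55 ± 0.50), Emr1 (-2.12 ± 0.36), which encodes F4/80, and Itgax (-1.61 ± 0.19), which encodes CD11c, a gene of the sort. Itgam, which encodes CD11b, gave 0.31 ± 0.21 (limma adjusted p = 0.213) on a probe with a run found in 148 windows, and C1qb (-0.78 ± 0.38) and Csf1r (0.08 ± 0.14), which encodes the M-CSF receptor, did not pass. The summed linear signal of the macrophage list, to which the bright Itgam probe contributes, was 277 to 352 in op/op, against 268 to 408 in WT. Markers of the proximal tubule were present in both renal groups and were lower in op/op as well: 12 of 13 fell and none rose, their median was 0.89, 1.42 and 0.12 in op/op, against 3.27, 2.11 and 2.26 in WT, and their summed signal was 26.3 to 74.7 in op/op, against 126 to 268 in WT. The counts of markers stand against 31.1% of all genes tested that rose and 28.7% that fell. Besides Itgam, the markers read by a probe with a run were Cd4 (T cell, 9 windows), Csf3r (neutrophil, 7), Siglech (dendritic cell, 19) and Slc22a12 (proximal tubule, 6). Of 8 B cell markers 5 rose and 1 fell, and of the 7 T cell markers tested 4 rose and 1 fell. Fibroblast and mural markers showed 4 falls and no rise among 7, with a median difference of -0.88. Neutrophil markers and markers of the distal nephron and collecting duct each showed 4 rises and 1 fall among 10 tested. There were 2 rises among 4 NK cell markers, 1 rise and 2 falls among 8 dendritic cell markers, and 1 rise among 8 endothelial markers. The part that the make-up of the sorted fractions had in the lysosomal differences was not tested, and in bulk RNA fewer cells of a type cannot be told apart from less RNA of these genes per cell.

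**Figure D5:**
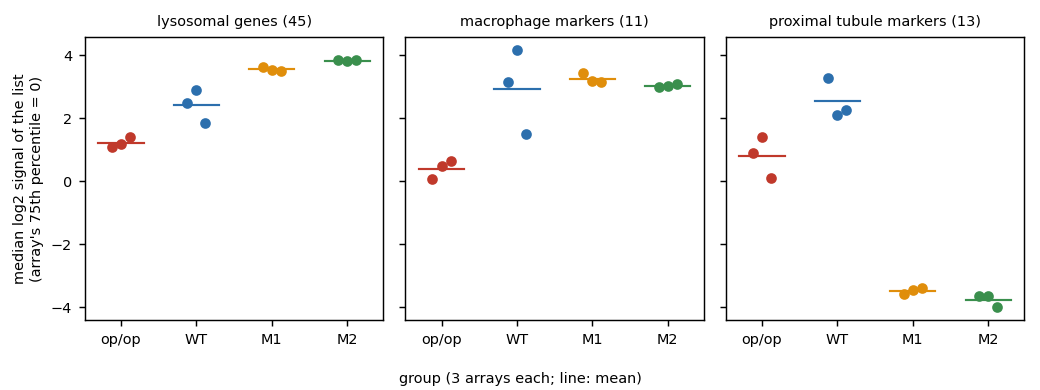
Median log2 signal per array (array's 75th percentile = 0) of the 45 lysosomal genes, 11 macrophage markers and 13 proximal tubule markers; points are arrays and lines group means. All 3 lists are lower on the op/op arrays than on the WT arrays, WT replicate 4 has the lowest macrophage median of its group, and the proximal tubule list is far lower in the cultured M1 and M2 cells.

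Further genes of the pathway, in lists chosen by name, were also lower more often than higher in op/op. Over all genes tested, 28.7% fell and 31.1% rose. In these lists Dnase2a, a hydrolase gene, and Slc17a5, a membrane protein gene, were read by probes with a run found in 12 and 148 windows. Of 31 other hydrolases and cofactors tested, 22 fell and 2 rose, and those that fell included Prcp, a carboxypeptidase (-1.22 ± 0.17, limma adjusted p = 0.00064). Hpse, the heparanase, stayed near background in op/op and was at least 2.26-fold lower there than in WT, and the sialic acid esterase gene Siae was at least 1.2-fold lower. Of 25 other membrane proteins, 15 fell and 3 rose. Slc11a1, the phagosomal metal transporter NRAMP1, fell 3.69-fold (-1.88 ± 0.28), Laptm5 (-1.37 ± 0.23) and Lamp3 (-0.89 ± 0.17) fell, and Tpcn2, a lysosomal cation channel, rose (0.95 ± 0.16, limma adjusted p = 0.00119). In the proton pump, 12 of 19 further subunits fell and none rose: Atp6v1b2 was not well above background in op/op and was at least 3.07-fold lower, Atp6v1c1 was at least 1.81-fold lower, and Atp6v0c (-1.18 ± 0.22) and Atp6v1d (-1.15 ± 0.21) fell. Genes that sort proteins to the lysosome showed 11 falls and 2 rises among 21, with Gnptab, which builds the mannose 6-phosphate tag (-1.06 ± 0.16), the tethering subunit gene Vps16 (-0.91 ± 0.14) and the adaptor gene Ap3b1 (-0.88 ± 0.14) among those that fell, and Gga1 at least 1.16-fold lower. Of 21 relatives and regulators of TFEB, 14 fell and 3 rose: Tfe3, the closest partner of TFEB in this role, fell 2.24-fold (-1.16 ± 0.16), Rheb (-1.2 ± 0.19) and Flcn (-1.36 ± 0.23), regulators of mTORC1 signalling, fell, and Rptor was at least 1.26-fold lower.

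The second comparison sets M1 against M2 bone marrow macrophages, which were measured with little spread. Here 12 of the 45 lysosomal genes were lower in M1, 2 were higher and 31 did not pass. Of all 26179 genes tested, 18.4% changed, 9.25% falling and 9.11% rising. The median difference over the members was -0.26, and that over all genes was 0.00. In 25 members every M1 array lay below every M2 array, which was so for 26.6% of all genes, and in 11 every M1 array lay above, which was so for 24.7% of all genes. The spread used in the test came from all 12 arrays, and the median residual SD over all genes was 0.37 on the renal arrays and 0.16 on the bone marrow ones. When the 6 bone marrow arrays were fitted alone, 21 members were lower in M1 and 8 were higher, with 9701 genes called in all, against 4805 in the fit to 12 arrays.

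Lipa gave 1.23, 1.02 and 1.46 in M1, against 4.44, 4.29 and 4.31 in M2 and was 8.62-fold lower in M1 (-3.11 ± 0.34, limma adjusted p = 3.97e-05). This was the member with the widest gap between the groups. Its partners in cholesterol handling split: Npc1 gave 0.05, -0.07 and -0.12 in M1, against 1.61, 1.52 and 1.37 in M2 and was 2.93-fold lower in M1 (-1.55 ± 0.17, limma adjusted p = 3.63e-05), while Npc2 gave 5.38, 5.51 and 5.5 in M1, against 4.58, 4.58 and 4.69 in M2, a difference of 0.85 ± 0.30 that did not pass (limma adjusted p = 0.0747) although its groups did not overlap. Proteases split as well. Ctsc gave 4.67, 4.41 and 4.44 in M1, against 2.74, 2.55 and 2.60 in M2 and was 3.67-fold higher in M1 (1.88 ± 0.32, limma adjusted p = 0.00117), with the same difference on its other probe (1.88 ± 0.30). Ctsh gave 4.14, 4.03 and 4.16 in M1, against 2.30, 2.23 and 2.19 in M2 and was 3.66-fold higher in M1 (1.87 ± 0.20, limma adjusted p = 4.24e-05). The 2 genes encode exopeptidases that remove dipeptides and single residues from the amino end. Tpp1, which removes tripeptides from the same end, was 4.21-fold lower, with -2.30, -2.06 and -2.34 in M1, against -0.18, -0.18 and -0.12 in M2 (-2.08 ± 0.27, limma adjusted p = 0.000198). The main endopeptidase genes did not pass, with differences of -0.19 ± 0.27 for Ctsb, -0.05 ± 0.27 for Ctss, -0.12 ± 0.23 for Lgmn, -0.45 ± 0.37 for Ctsd and -0.80 ± 0.30 for Ctsl. Ctsa (-0.28 ± 0.15) and Ctsz (0.35 ± 0.21) did not pass either, though the other probe of Ctsa was lower in M1 (-2.03 ± 0.47, limma adjusted p over all probes = 0.00967).

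Among the glycosidases and sulfatases, 6 of 16 were lower in M1 and none was higher, against 9.25% and 9.11% of all genes. Gusb gave 1.39, 1.12 and 1.12 in M1, against 3.12, 3.04 and 3.09 in M2 and was 3.67-fold lower (-1.88 ± 0.24, limma adjusted p = 0.000141), but its dimmer probe, annotated to another transcript, gave -0.26 ± 0.16 and did not pass. Both mannosidase genes were lower, Manba by 1.45 ± 0.24 and Man2b1 by 1.22 ± 0.24 on the log2 scale. Hexa (-1.13 ± 0.29), Arsb (-1.04 ± 0.20) and Naglu (-1.02 ± 0.20) were lower too, and the call of Hexa was lost in 4 of 25 alternative settings, each leaving out 1 bone marrow array (limma adjusted p up to 0.0578). Sgsh gave 0.08 ± 0.24 on its probe with a run (limma adjusted p = 0.886), and 0.84, 0.81 and 0.74 in M1, against 2.11, 1.95 and 1.79 in M2 on the other, which was lower in M1 (-1.16 ± 0.19, limma adjusted p over all probes = 0.000843). Left without a call were Glb1 (-0.63 ± 0.22), Neu1 (0.35 ± 0.18), Ids (-0.32 ± 0.33), Fuca1 (-0.26 ± 0.22), Arsa (-0.09 ± 0.21), Gaa (0.02 ± 0.15), Idua (0.17 ± 0.19), Galns (0.15 ± 0.17) and Gla (0.14 ± 0.42). Among the membrane proteins Cd68 gave 6.07, 5.88 and 6.10 in M1, against 6.83, 6.74 and 6.86 in M2 and was 1.73-fold lower in M1 (-0.79 ± 0.25, limma adjusted p = 0.0463), a call lost in 13 of 26 alternative settings. Lamp1 (-0.07 ± 0.23), Cd63 (-0.09 ± 0.23), Mcoln1 (-0.33 ± 0.15), Cln3 (0.29 ± 0.17), Scarb2 (0.42 ± 0.24) and Lamp2 (0.54 ± 0.24) did not pass, and the same held for the lipid genes Psap (-0.85 ± 0.29), Asah1 (-0.24 ± 0.27), Smpd1 (0.23 ± 0.17) and Ppt1 (0.14 ± 0.35).

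Atp6v1a gave 5.11, 4.87 and 4.88 in M1, against 6.30, 6.37 and 6.32 in M2 and was 2.6-fold lower in M1 (-1.38 ± 0.27, limma adjusted p = 0.00335), with the same on its other probe (-1.40 ± 0.30), while Atp6v1h (-0.42 ± 0.29), Atp6v0d1 (-0.39 ± 0.30) and Atp6ap1 (-0.29 ± 0.22) did not pass. The widest pump differences were in subunits outside the 45. Atp6v0d2, the macrophage and osteoclast form of the d subunit, gave 1.01, 1.18 and 2.02 in M1, against 5.40, 5.42 and 5.41 in M2 and was 16.1-fold lower in M1 (-4.01 ± 0.35, limma adjusted p = 6.23e-06), and Atp6v0a1 was 8.05-fold lower (-3.01 ± 0.16). Of 17 further subunits tested 4 were lower and 1 was higher. Tfeb gave 0.49, 0.15 and 0.87 in M1, against 1.97, 1.87 and 1.98 in M2 and was 2.71-fold lower in M1 (-1.44 ± 0.31, limma adjusted p = 0.00645). Its relative Tfec, a macrophage-rich member of the family, was lower too (-0.78 ± 0.21), and Tfe3 was higher (0.67 ± 0.16, limma adjusted p = 0.0131). Of 20 relatives and regulators of TFEB tested, 1 was higher and 4 were lower. Of 33 other hydrolases 3 were higher and 4 were lower, shares near those of all genes (9.11% and 9.25%). The phospholipase gene Plbd1 (3.1 ± 0.22) and the acid phosphatase gene Acp2 (2.02 ± 0.25) were higher in M1, and the hyaluronidase gene Hyal1 (-1.92 ± 0.23) and the thiol reductase gene Ifi30 (-1.94 ± 0.28) were lower. Of 26 other membrane proteins 3 were higher, Slc11a1 among them (1.99 ± 0.27), and 5 were lower, Cd9 among them (-2.21 ± 0.21). Of 21 sorting genes only 1 was higher and 2 were lower in M1, against 9.11% and 9.25% of all genes. M6pr, which encodes the cation-dependent mannose 6-phosphate receptor, was higher (1.03 ± 0.17). Igf2r (-0.84 ± 0.23), which encodes the cation-independent one, and Sort1 (-1.02 ± 0.16) were lower.

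The first and second comparisons contrast different arrays, but their calls are not independent, since each gene's spread came from 1 fit to all 12 arrays. In all, 10 members were lower both in op/op and in M1: Lipa, Manba, Gusb, Man2b1, Hexa, Arsb, Naglu, Cd68, Atp6v1a and Tfeb. They are 83.3% of the 12 lower in M1 and 31.2% of the 32 lower in op/op, which were themselves 71.1% of the 45. Over all genes tested, 28.7% were lower in op/op and 9.25% were lower in M1. The share of all genes lower in both is not given here, so the overlap is a description only. The remaining genes lower in M1 were Tpp1, which did not pass in op/op, and Npc1, which rose there. Ctsc was lower in op/op and higher in M1. Lgmn, Ctss, Ctsb, Neu1 and Lamp2, which were among the widest falls in op/op, did not pass between M1 and M2. Still, every M1 array of Neu1 and Lamp2 lay above every M2 array, which was so for 24.7% of all genes. For Ctsb every M1 array lay below, which was so for 26.6% of all genes. In the fit to the bone marrow arrays alone, Neu1 and Lamp2 passed as higher in M1, and Lgmn, Ctss and Ctsb did not pass.

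The third comparison sets the 6 renal against the 6 bone marrow preparations. It takes the mean of op/op and WT minus the mean of M1 and M2, so the lower op/op levels enter the renal side. Neu1, for example, was called lower in renal cells (-0.455 ± 0.13), although its WT mean of 1.71 lay above those of M1 (1.41) and M2 (1.06). A call can also rest on 1 bone marrow group. Ctsh was called lower in renal cells, although its means in op/op (2.43) and WT (2.84) lay above that of M2 (2.24). For Npc1, also called lower, the means in op/op (0.57) and WT (0.08) lay above that of M1 (-0.05). Tissue, magnetic sorting, glyoxylate treatment, culture, stimulus and slide cannot be told apart in this comparison. Lysosomal genes were lower in the renal cells: 37 of 45 were lower, 4 were higher and 4 did not pass, whereas 82.1% of the 28276 genes tested changed, 34.7% lower and 47.4% higher. The median difference over the members was -1.61, and that over all genes was 0.32. Ctsd was 14.6-fold lower in renal cells (-3.87 ± 0.26), with 1.76, 2.56 and 2.14 in op/op and 3.61, 4.51 and 2.62 in WT, against 6.61, 6.45 and 6.47 in M1 and 6.97, 6.90 and 7.0 in M2. The renal and bone marrow arrays of Ctsd were far apart. Lipa (-3.41 ± 0.24), Ctsl (-3.14 ± 0.22), Npc2 (-3.13 ± 0.22) and Ctsb (-2.88 ± 0.19) were the next lowest, each with a limma adjusted p of at most 1.86e-07. Every op/op array lay below every bone marrow array in 35 members, which was so for 31.4% of all genes, and every WT array did so in 25, which was so for 22.4% of all genes. The members that were not below all bone marrow arrays in WT but were so in op/op included Ctsc, Lamp2, Neu1 and Manba.

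The members higher in renal cells were Arsb (1.05 ± 0.14), Sgsh (0.83 ± 0.17), Galns (0.75 ± 0.12) and Idua (0.60 ± 0.14), and 3 of them were read by a probe with a run. Under quantile normalization those 3 turned to values just below 0 (-0.02 for Sgsh, -0.04 for Galns and -0.03 for Idua). On their other probes Idua was lower (-2.0 ± 0.17) and Sgsh was higher (0.43 ± 0.13, limma adjusted p over all probes = 0.0103). Arsb was higher on both of its probes, the other one giving 0.67 ± 0.22. The op/op mean of Arsb was nevertheless below the M2 mean on the brightest probe (1.195 against 1.248) and on the other (-1.155 against -0.401). It was above the M1 mean on both (0.210 and -1.569). Only the WT means (2.360 and 0.528) lay above those of both bone marrow groups. The 935 genes of the array read by such a probe were higher in renal cells in 78.7% and lower in 5.67%, against 46.3% and 35.7% of all other genes. Gla (0.02 ± 0.30), Cln3 (0.03 ± 0.12), Smpd1 (-0.17 ± 0.12) and Ppt1 (-0.37 ± 0.25) did not pass. The probes of Ctsc also disagreed in sign here: it was lower in renal cells on the brightest probe (-1.93 ± 0.23) and higher on the other (1.52 ± 0.22), which is annotated to another transcript, while both probes fell in op/op and both were higher in M1. Proximal tubule markers had medians of 0.89, 1.42 and 0.12 in op/op and 3.27, 2.11 and 2.26 in WT, against -3.57, -3.47 and -3.39 in M1 and -3.65, -3.64 and -4.00 in M2, and their part in the renal levels was not tested.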

How the data were processed

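RNA of 12 macrophage preparations was amplified, labelled with Cy3 and hybridised to 1-colour Agilent arrays, per the labels' protocols. The deposited scanner files hold a processed signal intensity per spot, background-corrected by Agilent Feature Extraction 10.7.3.1, per the file headers and the submitters' processing notes. The deposited value table holds log2 intensities scaled to each array's 75th percentile, and matched the scaling used here (r = 1).

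Control and outlier spots were left out, the log2 processed signal was set to a 75th percentile of 0 on each array, and spots of a probe were averaged. Probes were kept where all arrays of a group had them well above background (42920 probes, 28276 genes), and a gene was tested where this held for a group compared. The brightest kept probe stood for a gene. A lower bound on a fold sets the brighter group against the dimmest signal well above background. Means of the 4 groups were fitted with limma 3.58.1 (R 4.3.3), with Benjamini-Hochberg adjustment over all genes, after a test on simulated data. Values of single probes were fitted over all kept probes. All 45 members are named, and up to 4 genes with the smallest p of each pathway list, of which 1 gene is not reported here. The members and lists were chosen with earlier results of these data known. Other scalings, background correction, filters, probe choices, models and sets of arrays were tried. Replicate numbers are shared between groups but did not pair the samples. The number of arrays limits the precision.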

Additional observations from a re-analysis of the deposited data

How the results depend on the processing

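Of the members' values recomputed under the alternatives, 1094 kept direction and side of the threshold in op/op minus WT, 54 lost a call, 29 gained one and 4 changed sign. The counts were 1070, 18, 45 and 2 in M1 minus M2, and 1061, 17, 4 and 9 in renal minus bone marrow. The cause of these changes was not tested, except where an alternative has fewer genes or arrays by construction.

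In op/op minus WT, 16184 genes were called. With the second brightest probe, which only genes with several probes have, 4383 genes were called, 12 members fell, 1 rose, and the members' median relative to all genes was -0.89, with Idua at -0.85 and Sgsh at -0.68; both genes had these values also without the probes that share a run, an alternative chosen after seeing the data. A fit to the renal arrays alone called 10151 genes and 0 members as higher, and a 2-fold minimum left 7111 genes and 0 higher members. Leaving out 1 array gave 11909 (without op/op replicate 1) to 17573 genes (without WT replicate 4), 30 to 36 lower members, 0 to 3 higher members and relative medians of -1.64 to -1.06.

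In M1 minus M2, 4805 genes were called. The second brightest probe gave 1550 genes, 5 lower members, 1 higher member and -1.16 for Sgsh, which had that value also without probes that share a run. The bone marrow arrays alone gave 9701 genes with 21 lower and 8 higher members, array weights gave 10574 with 20 and 8, and a 2-fold minimum left 2854 genes. Leaving out 1 array gave 3385 to 6011 genes, 10 to 15 lower members, 2 to 3 higher members and relative medians of -0.36 to -0.19.

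In renal minus bone marrow, 23217 genes were called. Quantile normalization left 2 higher members, a relative median of -1.53, and -0.0373 for Galns, -0.0258 for Idua and -0.0169 for Sgsh. The mean of all probes gave a median of -1.52 and -0.70 for Idua. The second brightest probe gave 6632 genes, 9 lower members, a median of -0.95, 1.52 for Ctsc, 0.46 for Gaa, 0.37 for Fuca1 and -2.0 for Idua, which also had that value without probes that share a run, where 2 members were higher. A 2-fold minimum left 15303 genes and 1 higher member. Leaving out 1 array gave 22537 to 24315 genes, 37 lower and 4 to 5 higher members, and relative medians of -2.07 to -1.74.

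With the replicate number as a replicate block, 15505 genes were called in op/op minus WT, with 32 members lower and 1 higher, 4193 in M1 minus M2 and 21906 in renal minus bone marrow. Deviations of same-numbered samples from their group means correlated at -0.16, 0.07 and -0.06 between op/op and WT and at -0.07, 0.14 and 0.08 between M1 and M2, so the numbers were not taken as pairs. Genes near background, such as Ids and Tpp1 in op/op, are limited by their signal.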

Other observations

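Among cathepsin inhibitors, 6 of 10 tested were higher in M1 and 2 were lower, with a median difference of 1.46. The stefin genes Stfa3 (3.35 ± 0.22), BC100530 (3.12 ± 0.22) and Stfa2l1 (1.88 ± 0.29), which belong to a family of close copies and are uncertain because a probe may read several of them, and Cst7 (2.07 ± 0.25), the cystatin F gene, were higher, each in a limma fit with adjusted p of at most 0.00058. Over all genes 9.11% were higher and 9.25% lower in M1. In op/op, 2 of 8 inhibitors tested rose and 3 fell, shares near those of all genes (31.1% and 28.7%), and in renal cells 8 of 10 were lower than in bone marrow cells and none was higher, where 34.7% of all genes were lower and 47.4% higher.

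Of 20 autophagy genes, 11 fell and 1 rose in op/op, where 28.7% of all genes fell and 31.1% rose. In M1, 1 was higher and 1 was lower, against 9.11% and 9.25% of all genes. In renal cells 16 were lower and 1 was higher, against 34.7% and 47.4% of all genes. Gabarap, which encodes an autophagosome membrane protein, had a difference of -0.99 ± 0.21 in op/op minus WT (limma adjusted p = 0.0032), and Ulk1, which encodes a kinase that starts autophagy, had -0.84 ± 0.18 (limma adjusted p = 0.00306).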
